A study of Rattus norvegicus with 15 samples.

Results

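The comparison described here set the nucleus accumbens of rats tested for cue-induced cocaine seeking after 30 days of withdrawal (30C) against that of rats tested after 1 day of withdrawal (1C). It was made from the 3 arrays titled as 30C and the 3 titled as 1C, out of 15 arrays in all, and covered every gene with 1 symbol in the platform annotation. Of 14497 such genes, 11778 exceeded the 30th percentile of all probe sets in 3 or more samples and were tested.

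All rats were male Sprague-Dawley animals, whose ages the sources used here do not give, fitted with a jugular catheter before training. The 30C rats self-administered cocaine at 0.75 mg/kg per infusion for 6 hours a day over 10 days, with each infusion signalled by a light, then spent 30 days in withdrawal and had an extinction test with the cue. The 1C rats had the same training and test with 1 day of withdrawal. The 30W and 1W rats had the same training and withdrawal lengths without the test, and the saline rats (Sal) self-administered saline. Each group had 3 arrays. Nothing in the labels tells whether RNA came from single rats or from pools, so the p-values measure only the spread between these samples. The time between the test and the removal of tissue is not given in the sources used here. Withdrawal length also sets the animals' age and the time since surgery and the last cocaine, and these cannot be told apart.

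Cocaine seeking in answer to a drug cue grows over weeks of abstinence in rats, a process called incubation of craving. The nucleus accumbens is a ventral striatal region made up mainly of GABAergic medium spiny neurons, which receive glutamate input from cortex, amygdala and hippocampus and dopamine from the midbrain. When such neurons are driven by strong input, calcium and MAP kinase signals switch on immediate early genes within minutes without new protein synthesis. Many of these genes encode transcription factors of the Fos, Egr and Nr4a families, and their mRNAs decay again soon afterwards.

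Values are log2 expression levels that the authors made with RMA, a method that subtracts background, forces the intensity distributions to be equal and reduces each probe set to 1 value. Array pairs correlated between 0.9929 and 0.9967 over all 28826 probe sets (Pearson's r). Penk and Drd2, defining markers of medium spiny neurons, lay above the 75th percentile of every array, which was at most 8.59. Penk, the precursor of enkephalin, lay between 12.39 and 12.82, and Drd2, the dopamine D2 receptor, between 11.21 and 11.87. Slc17a7, a vesicular glutamate transporter of cortical neurons, varied far more, with 12.16, 10.94 and 9.23 in 30C and 10.02, 11.56 and 10.96 in 1C. The mean deviation of 18 cortical projection neuron markers was 0.70, -0.05 and -0.43 log2 units in 30C and -0.31, 0.27 and -0.01 in 1C. In bulk tissue, fewer cells of a type and less RNA per cell cannot be told apart.

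No gene passed an adjusted p of 0.05 in the comparison of 30C with 1C (limma across all 15 arrays, Benjamini-Hochberg adjustment over 11778 genes), which is 0.0% of those tested. The smallest adjusted p was 0.152, for Nfil3. At an unadjusted p under 0.05, 646 genes (5.48%) differed, 284 of them higher in 30C (2.41%) and 362 lower (3.07%). For 450 genes (3.82%) every 30C array lay above every 1C array, and for 691 genes (5.87%) every 30C array lay below. The directions and group counts that follow are descriptions of genes that did not pass the adjusted threshold. Over all genes tested, 5220 (44.3%) were higher in 30C and 6558 (55.7%) lower, with a median difference of -0.01 log2 units.

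**Figure D1:**
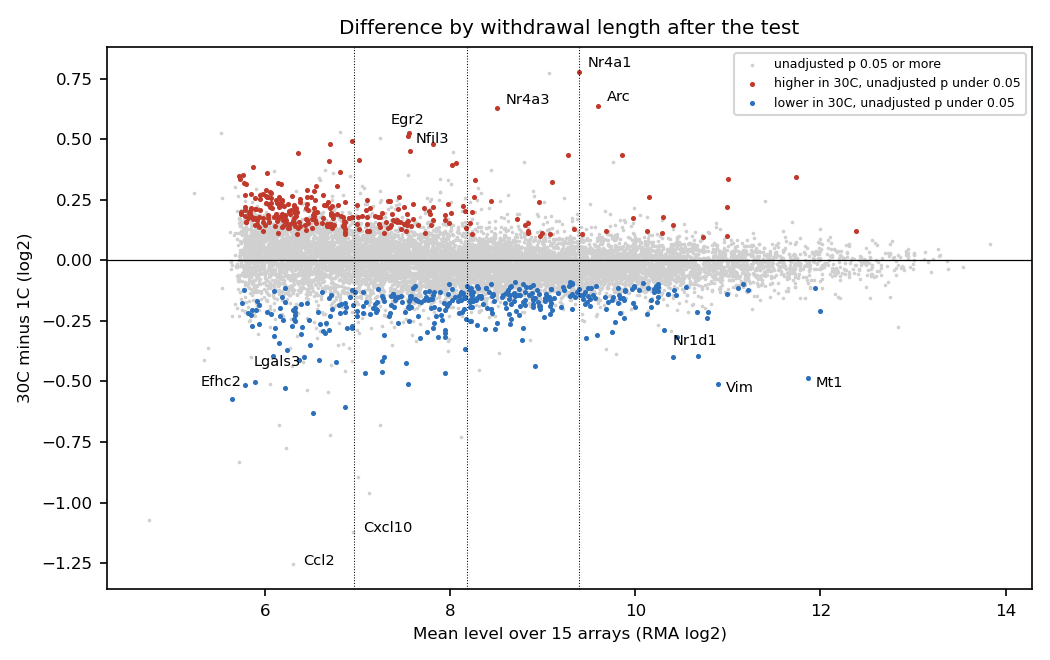
Difference between 30C and 1C (log2) against the mean level over 15 arrays (RMA log2) for the 11778 genes tested, with dotted lines at the quartiles of level. Red and blue points reached an unadjusted p under 0.05, and no gene passed the adjusted threshold; 180 of the 284 red points lie in the lowest quartile.

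Nfil3, a basic leucine zipper repressor that acts on clock output genes, had the smallest p of all. Its levels were 8.14, 7.87 and 7.87 on the 30C arrays, against 7.36, 7.59 and 7.38 on the 1C arrays. All 3 arrays of 30C thus lay above all 3 of 1C, at means of 7.96 ± 0.16 and 7.44 ± 0.13 (SD, n = 3 each). The difference was 0.51 log2 units (SE 0.08, 95% interval 0.35 to 0.68), or 1.43-fold, with an unadjusted p of 1.29e-05 in limma. The other groups lay near 1C, since Nfil3 read between 7.39 and 7.43 in 30W, between 7.30 and 7.40 in 1W and between 7.49 and 7.62 in Sal. The difference between 30W and 1W was 0.07 (SE 0.08).

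Of the 12 genes with the smallest p among those higher in 30C, the other 11 had differences between 0.17 and 0.37 log2 units and adjusted p-values of 0.607 or 0.608 (limma). Kdm6b, a demethylase of lysine 27 on histone H3, read 8.33, 8.36 and 8.26 in 30C and 8.15, 8.04 and 8.15 in 1C. That is a difference of 0.20 (SE 0.05), and it was -0.05 (SE 0.05) between 30W and 1W. Evx1, a homeobox transcription factor, read 6.63, 6.64 and 6.65 in 30C and 6.39, 6.42 and 6.32 in 1C, a difference of 0.26 (SE 0.06). Pgls, an enzyme of the pentose phosphate pathway, read 7.73, 7.70 and 7.70 in 30C and 7.55, 7.54 and 7.53 in 1C. The remaining 8 were Tsks, Abo, Lrrc38, the secretin receptor Sctr, Klk1, the haematopoietic transcription factor Tal1, and the olfactory receptors Or2ak6e and Or10p22. Apart from Abo, whose 30C arrays read between 8.29 and 8.58, these 8 averaged between 5.60 and 6.65 in 1C, in the lower part of the range of levels.

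The 12 genes with the smallest p among those lower in 30C were led by Efhc2, an EF-hand domain protein. It read 5.82, 5.48 and 5.63 in 30C and 6.20, 5.97 and 6.27 in 1C, a difference of -0.50 (SE 0.09, adjusted p = 0.482 in limma). The others include Lgals3 (galectin 3), Cd180 (a toll-like receptor homologue), Il1r1 (the interleukin 1 receptor) and Plek (pleckstrin, a protein kinase C substrate of blood cells). Il1r1 read 6.49, 6.41 and 6.89 in 30C and 7.07, 7.06 and 6.92 in 1C, a difference of -0.42 (SE 0.10). Apobec1, a cytidine deaminase that edits RNA, read 6.23, 6.33 and 6.17 in 30C and 6.45, 6.49 and 6.55 in 1C. The remaining genes were Nat8f1, Fam76a, Zfp39, Ccdc115 and the nuclear receptors Nr1d2 and Nr1d1.

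**Figure D2:**
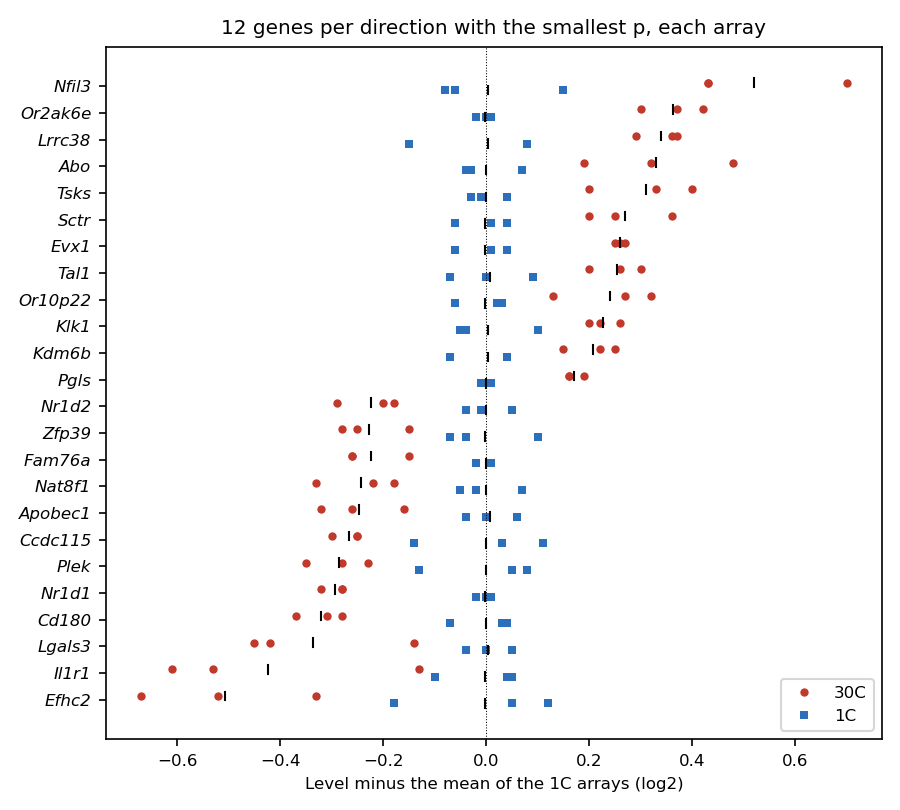
Level of each 30C array (circles) and 1C array (squares) minus the mean of the 1C arrays (log2) for the 12 genes per direction with the smallest p. Short bars are group means. In every row the 3 circles lie on one side of the 3 squares, which was a condition for naming a gene here; no gene passed the adjusted threshold.

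Immediate early genes stood mostly higher in 30C. Of 54 tested, 48 were higher and 6 lower, with a median difference of 0.21 log2 units. At an unadjusted p under 0.05, 18 were higher (33.3%, against 2.41% of all genes) and 0 were lower. None of the 54 passed the adjusted threshold. These 18 differed by 0.20 to 0.78 log2 units with a median of 0.38. Over the whole list, every 30C array lay above every 1C array for 20 of the 54 genes, as it did for 3.82% of all genes.

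Among the transcription factors, the orphan nuclear receptor Nr4a1 had the largest difference. It read 10.32, 10.01 and 10.03 in 30C and 9.03, 9.36 and 9.63 in 1C, so that the lowest 30C array stood above the highest 1C array. The difference was 0.78 (SE 0.24, 95% interval 0.27 to 1.29), or 1.72-fold, with an adjusted p of 0.748 in limma. Its relative Nr4a3 read 9.49, 9.22 and 8.99 in 30C and 8.58, 8.75 and 8.50 in 1C. That was a difference of 0.63 (SE 0.23).

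The zinc finger factors of the Egr family followed. Egr2 read 8.35, 8.11 and 8.01 in 30C and 7.53, 7.61 and 7.75 in 1C, a difference of 0.53 (SE 0.18). Egr4 read 8.60, 8.50 and 8.30 in 30C and 8.02, 8.13 and 8.04 in 1C, and differed by 0.40 (SE 0.11). Egr1 read 12.19, 12.11 and 11.94 in 30C and 11.62, 11.74 and 11.84 in 1C, and differed by 0.35 (SE 0.15). Within each of these the groups did not overlap.

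Of the AP-1 factors, which bind DNA as Fos and Jun dimers, Fos read 8.37, 7.89 and 7.83 in 30C and 7.32, 7.81 and 7.60 in 1C, a difference of 0.45 (SE 0.15). Junb read 9.86, 9.65 and 9.64 in 30C and 8.99, 9.39 and 9.46 in 1C, a difference of 0.43 (SE 0.15). In both, replicate 1 of 1C was the lowest array. Fosl2 also reached an unadjusted p under 0.05 (0.32, SE 0.11). Jun (0.07, SE 0.14), Jund (-0.07, SE 0.06) and Fosl1 (-0.02, SE 0.06) did not. Fosb had no probe set with 1 symbol among those used here and was not analysed.

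Of the effectors, Arc, which drives endocytosis of AMPA receptors at synapses, read 10.52, 10.07 and 9.90 in 30C and 9.17, 9.63 and 9.77 in 1C, a difference of 0.64 (SE 0.26). The growth arrest genes Gadd45g and Gadd45b, which take part in DNA demethylation, differed by 0.29 (SE 0.08) and 0.23 (SE 0.07). Dusp5 and Dusp1, phosphatases that switch off MAP kinases, differed by 0.24 (SE 0.07) and 0.44 (SE 0.19). For Dusp1 the groups overlapped, with 10.68, 10.04 and 10.14 in 30C and 9.50, 10.09 and 9.96 in 1C. Sik1, Klf2, Fosl2, Atf3 and Egr3 complete the 18, at differences between 0.20 and 0.32. Npas4, a factor induced by calcium entry, had a difference close to that of Nr4a1 but overlapped, with 10.15, 9.52 and 9.46 in 30C and 8.30, 8.87 and 9.63 in 1C (0.77, SE 0.37). Bdnf, the neurotrophin, differed by 0.23 (SE 0.15) and stood out on replicate 1 of 30C alone, at 6.48 against 5.99 on both other 30C arrays.

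The upstream windows of 4 of these genes are printed because the TGACG core bound by CREB-type factors, which is known to relay calcium and cyclic AMP signals to immediate early genes, can be read in them. Each window holds the 250 bases before the annotated start, on the gene's own strand, from RefSeq on GRCr8. Capitals mark TGACG or its reverse complement CGTCA, and the full palindrome TGACGTCA holds both.
Nfil3, chr17:12432126-12432375, plus strand: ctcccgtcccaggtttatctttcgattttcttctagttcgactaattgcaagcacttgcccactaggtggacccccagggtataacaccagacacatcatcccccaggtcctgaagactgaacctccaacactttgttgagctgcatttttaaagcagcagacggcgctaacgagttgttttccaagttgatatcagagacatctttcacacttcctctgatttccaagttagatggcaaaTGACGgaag
Nr4a1, chr7:134259888-134260137, plus strand: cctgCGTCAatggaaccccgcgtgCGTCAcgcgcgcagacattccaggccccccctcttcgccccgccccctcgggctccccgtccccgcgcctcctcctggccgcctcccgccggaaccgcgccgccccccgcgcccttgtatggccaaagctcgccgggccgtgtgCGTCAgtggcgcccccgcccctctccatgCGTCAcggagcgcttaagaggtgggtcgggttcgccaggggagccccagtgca
Egr2, chr20:21054442-21054691, minus strand: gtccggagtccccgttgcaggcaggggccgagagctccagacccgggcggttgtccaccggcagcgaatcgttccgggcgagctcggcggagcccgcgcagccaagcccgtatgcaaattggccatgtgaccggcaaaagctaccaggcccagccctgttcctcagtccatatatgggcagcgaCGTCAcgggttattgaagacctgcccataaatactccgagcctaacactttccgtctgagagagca
Dusp1, chr10:17184603-17184852, plus strand: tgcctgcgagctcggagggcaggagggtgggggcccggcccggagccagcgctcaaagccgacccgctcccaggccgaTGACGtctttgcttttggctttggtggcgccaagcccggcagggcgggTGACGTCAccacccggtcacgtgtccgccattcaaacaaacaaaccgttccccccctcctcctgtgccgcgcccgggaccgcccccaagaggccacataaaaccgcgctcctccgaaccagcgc
Nfil3 holds 1 copy, close to the start, Nr4a1 holds 4, Egr2 holds 1 and Dusp1 holds 3, with the palindrome among them. A window was at hand for 12 of the 18 genes. TGACG on either strand was found in 9 of the 12, and the windows of Fosl2, Gadd45b and Gadd45g held no copy. It was found in 18.2% of 33469 windows of the same length, which were not matched to the 12 in base composition. The Egr-type motif GCGNGGGCG was found in 4 of the 12 and in 4.29% of all windows, and the CArG box of serum response factor in 3 of the 12 and in 1.5%. The E-box CACGTG, to which clock factors among others bind, was found in 3 of the 12 and in 5.59%. These matches describe letters in a window and say nothing of binding.

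The immediate early genes were not equally high on the 3 arrays of 30C. Their mean deviation from each gene's mean over 15 arrays was 0.42, 0.17 and 0.08 log2 units in 30C and -0.12, 0.10 and 0.02 in 1C, so the lowest 30C array overlapped 1C. Replicate 1 of 30C, the highest, also had the highest cortical marker score of the 6 arrays (0.70). With that score as a covariate, 25 of the 54 members were higher at an unadjusted p under 0.05. No share over all genes is given for that fit, and the part of cortical tissue in these values was not tested. Without replicate 1 of 30C 13 members were higher at that level, and without replicate 1 of 1C 11 were. The count over all genes also moved, from 284 with all arrays to between 183 (without replicate 1 of 1C) and 394 as single arrays were left out. Without the test, the median of the 54 genes was 0.05 between 30W and 1W, with 32 higher and 22 lower. Of the 54, 4 were higher in 30W than in 1W at an unadjusted p under 0.05, where 4.19% of all genes were. These were Npas4 (0.82), Fos (0.34), Ccn1 (0.34) and Gadd45g (0.17), so that Npas4 differed by about as much without the test as with it. Of the 18, 15 were higher in 30W than in 1W. That share is near the 78.9% of all 284 genes higher in 30C at that level (39.7% of all genes were higher in 30W). In saline rats Nr4a1 ranged from 8.89 to 9.89 and Arc from 8.92 to 10.00, across the range of the 1C arrays.

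**Figure D3:**
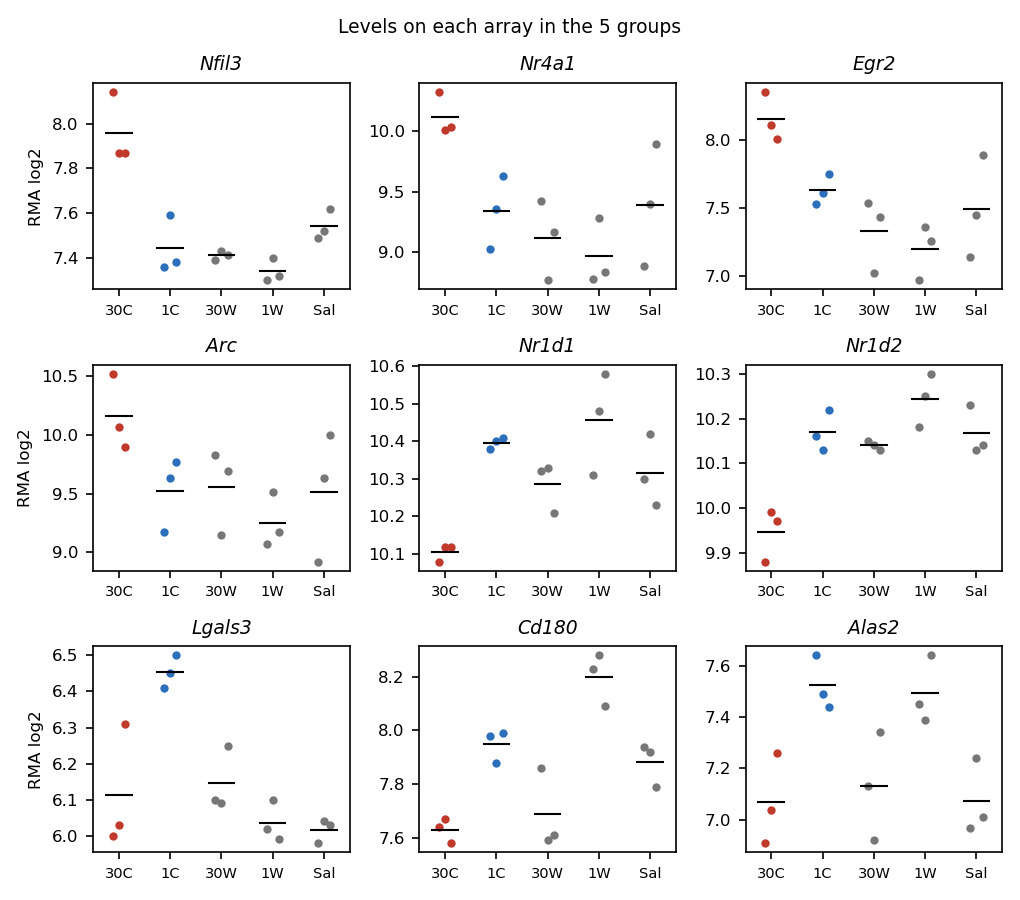
Levels (RMA log2) of 9 genes on each array of the 5 groups, with bars at group means. For Nfil3, Nr4a1 and Egr2 the 30C arrays lie above every array of the other groups, whereas for Nr1d1 and Nr1d2 they lie below every one; each axis has its own range.

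Circadian clock genes did not move one way as a group. Of 17 tested, 8 were higher and 9 lower, with a median of -0.03. Nfil3 was the 1 member higher at an unadjusted p under 0.05, and 3 were lower (17.6%, against 3.07% of all genes). The 3 were Nr1d1 and Nr1d2, heme-binding nuclear receptors that repress clock genes through the same promoter elements, and Dbp, a clock output factor that binds the sites Nfil3 also binds. Nr1d1 read 10.08, 10.12 and 10.12 in 30C and 10.38, 10.40 and 10.41 in 1C, a difference of -0.29 (SE 0.07, adjusted p = 0.607 in limma). Nr1d2 read 9.88, 9.99 and 9.97 in 30C and 10.16, 10.13 and 10.22 in 1C, a difference of -0.22 (SE 0.05). Dbp read 11.69, 11.89 and 11.93 in 30C and 12.10, 11.94 and 12.10 in 1C, a difference of -0.21 (SE 0.08). In all 3 genes the groups did not overlap. Between 30W and 1W the differences were -0.17 for Nr1d1, -0.11 for Nr1d2 and -0.13 for Dbp. Per1, a clock gene that light and glucocorticoids also induce, differed by 0.14 (SE 0.08), with 10.02, 10.10 and 10.00 in 30C and 9.90, 9.92 and 9.89 in 1C. The hour at which tissue was taken is not given in the sources used here, and its part in these values was not tested.

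Glucocorticoid-responsive genes were mixed. Of 30 tested, 4 were higher at an unadjusted p under 0.05 (Cdkn1a, Sgk1, Pdk4 and Dusp1) and 2 lower (Mt1 and Map3k6). These are 13.3% and 6.67%, against 2.41% and 3.07% of all genes, and the median over the list was 0.02. Sgk1, a kinase that regulates ion channels, read 11.39, 11.30 and 11.18 in 30C and 10.77, 11.16 and 10.93 in 1C, a difference of 0.34 (SE 0.14). Mt1, a metal-binding metallothionein, read 11.58, 11.58 and 11.84 in 30C and 12.06, 12.51 and 11.89 in 1C, a difference of -0.49 (SE 0.15). Cdkn1a, a cell cycle inhibitor, read 8.48, 8.44 and 8.51 in 30C and overlapped 1C, which read 7.87, 8.49 and 7.88.

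Markers of microglia and macrophages, the resident immune cells of the brain, lay mostly lower in 30C. Of 31 tested, 30 were lower and 1 higher, with a median of -0.11 log2 units, and 8 were lower at an unadjusted p under 0.05 (25.8%, against 3.07% of all genes). Cd180 read 7.64, 7.67 and 7.58 in 30C and 7.98, 7.88 and 7.99 in 1C, a difference of -0.32 (SE 0.08). Lgals3 read 6.00, 6.03 and 6.31 in 30C and 6.41, 6.45 and 6.50 in 1C, a difference of -0.34 (SE 0.07). Both showed no overlap between the groups. Ptprc, the leukocyte phosphatase CD45, overlapped and differed by -0.31 (SE 0.10), and the other 5 were Csf1r, Aif1, Lyz2, Itgam and Irf8, between -0.14 and -0.44. Cx3cr1, the fractalkine receptor of resting microglia, differed by -0.09 (SE 0.05).

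The mean deviation of the microglial list was -0.04, -0.07 and -0.06 in 30C and 0.02, 0.16 and 0.04 in 1C. Replicate 2 of 1C, the highest, also carried the chemokines Ccl2 at 9.75 and Cxcl10 at 9.28, against 6.03 to 6.75 for both genes on the other 5 arrays. Without that array, 4 microglial markers were lower at an unadjusted p under 0.05. Between 30W and 1W, 28 of the 31 markers were lower, as were 60.3% of all genes. Their median was -0.12, and 8 were lower at an unadjusted p under 0.05, against 5.9% of all genes. Only Cd180 and Csf1r reached that level in both comparisons. The rest were Cd53, Cx3cr1, Selplg, Ly86, P2ry13 and Gpr34. These were also lower in 30C than in 1C, between -0.04 (Gpr34) and -0.16 (Cd53), but short of that level. Of the 8 lower in 30C at that level, only Lgals3 was higher in 30W than in 1W (0.11).

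Endothelial and mural cell markers also lay mostly lower, with 28 of 30 below 1C (55.7% of all genes were) and a median of -0.12. At an unadjusted p under 0.05, 7 were lower (23.3%, against 3.07% of all genes). Podxl, a sialomucin of the endothelial surface, read 9.25, 9.41 and 9.67 in 30C and 9.70, 9.87 and 9.68 in 1C, a difference of -0.31 (SE 0.10). Esam, an adhesion molecule of endothelial junctions, differed by -0.24 (SE 0.08). Itm2a, Abcc9, Cdh5, Slc38a5 and Pdgfrb were the other 5, between -0.17 and -0.35. The count rested on single arrays, being 2 without replicate 1 of 30C, 4 without replicate 2 and 14 without replicate 3.

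Of 8 blood cell markers tested, 5 were lower in 30C and 3 higher. Of the 8, 3 had an unadjusted p under 0.05 (all lower, 37.5%, against 3.07% of all genes). Alas2, which starts heme synthesis in erythroid cells, read 6.91, 7.04 and 7.26 in 30C and 7.64, 7.49 and 7.44 in 1C, a difference of -0.46 (SE 0.12). Hbb, a beta globin, read 10.09, 10.32 and 10.54 in 30C and 10.97, 10.64 and 10.55 in 1C, a difference of -0.40 (SE 0.15). Slc4a1, the anion exchanger of red cells, differed by -0.24 (SE 0.10). The other 5 did not reach that level, with Hbb-b1 at -0.39, Epb42, a protein of the red cell membrane, at -0.03, and Hemgn, Ppbp and Pf4 between 0.03 and 0.09. Hbb and Hbb-b1 are closely related globin genes whose probes may share targets. Between 30W and 1W, 4 of the 8 were higher and 4 lower, with Alas2 at -0.36 (SE 0.12), Hbb at -0.47 (SE 0.15) and Epb42 at 0.32 (unadjusted p = 0.0201 in limma). How the tissue was cleared of blood is not given in the sources used here, and the part of blood in the vascular and microglial values was not tested.

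Of other glial genes, the intermediate filament Vim read 10.64, 10.57 and 11.12 in 30C and 11.41, 11.26 and 11.19 in 1C, a difference of -0.51 (SE 0.16). Gfap, the astrocyte filament, overlapped, with 9.53, 9.35 and 9.13 in 30C and 9.85, 9.79 and 9.33 in 1C (-0.32, SE 0.14). Gfap was the 1 member of 22 astrocyte markers at an unadjusted p under 0.05 (4.55% lower, near the 3.07% of all genes). Vcan, a chondroitin sulfate proteoglycan made by oligodendrocyte precursors, read 8.07, 7.93 and 8.18 in 30C and 8.32, 8.36 and 8.25 in 1C, a difference of -0.25 (SE 0.06). Of 28 extracellular matrix and perineuronal net genes, 16 were lower and 12 higher. Vcan, Bcan and Mmp9 were the 3 lower ones that reached an unadjusted p under 0.05 (10.7%, against 3.07% of all genes). Among 26 oligodendrocyte markers only Fa2h, which hydroxylates myelin lipids, reached an unadjusted p under 0.05 (-0.15, SE 0.07). That is 3.85% lower, near the 3.07% of all genes.

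**Figure D4:**
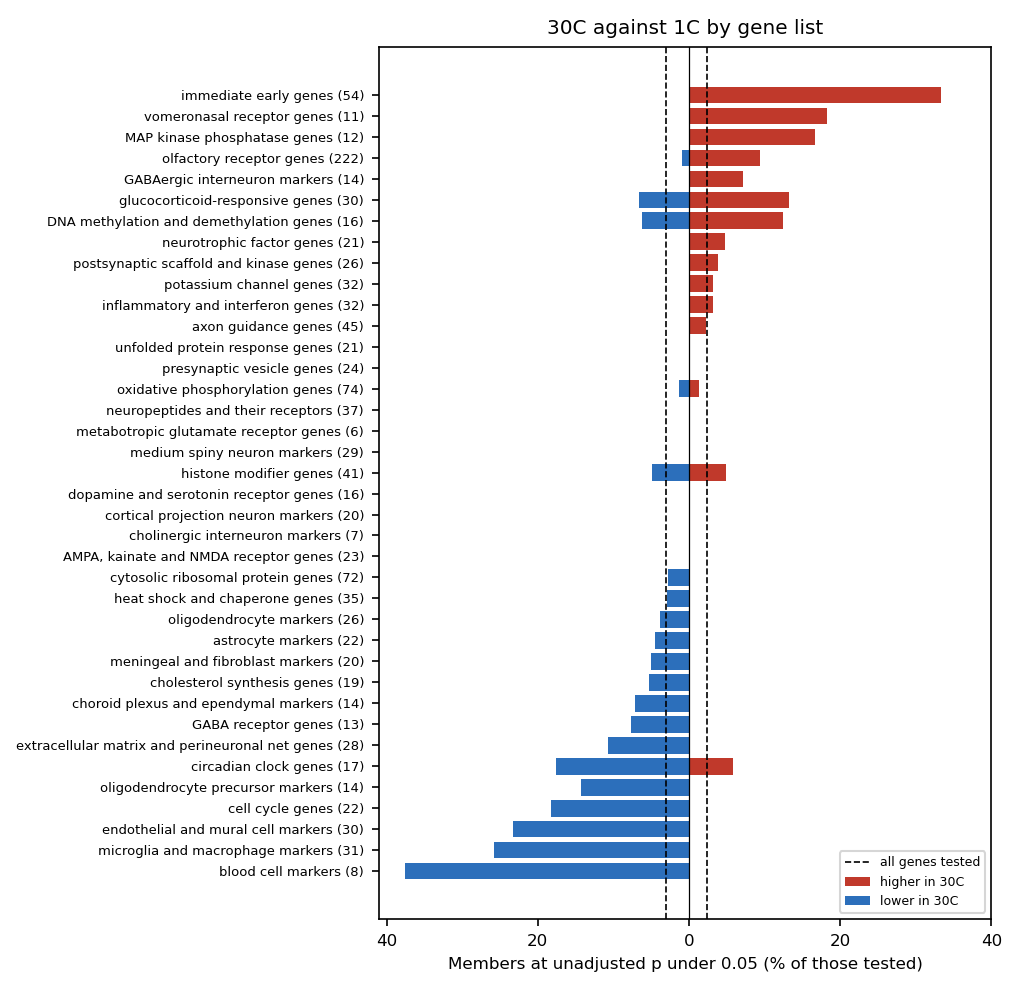
Share of the tested members of each of 38 gene lists (number tested in parentheses) that reached an unadjusted p under 0.05, higher in 30C to the right and lower in 30C to the left. Dashed lines mark the shares over all genes tested, 2.41% and 3.07%. Immediate early genes reach 33.3% on the right. On the left, blood cell markers (8 tested) reach 37.5% and microglial markers 25.8%. No member of any list passed the adjusted threshold.

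Few neuronal identity and transmitter receptor genes reached an unadjusted p under 0.05, a level that 5.48% of all genes reached. In lists of this size a count of 0 lies near that share. Of 29 medium spiny neuron markers, 27 were lower in 30C (55.7% of all genes were), with a median of -0.12, and 0 reached an unadjusted p under 0.05. The lowest values were those of replicate 1 of 30C, where the list's mean deviation was -0.37. It was 0.07 and 0.11 in the rest of 30C, and -0.01, 0.00 and 0.15 in 1C. Drd1, the dopamine D1 receptor, read 9.54, 10.20 and 10.16 in 30C and 10.10, 9.99 and 10.17 in 1C. Its difference of -0.12 (95% interval -0.49 to 0.25) became 0.09 without that array. Drd2 differed by -0.13 (95% interval -0.46 to 0.20) and Pdyn, the precursor of dynorphin, by -0.14 (95% interval -0.54 to 0.26), and both turned to 0.06 without it. Drd3 differed by -0.01 (95% interval -0.45 to 0.43). None of 16 dopamine and serotonin receptor genes and none of 37 neuropeptides and their receptors reached an unadjusted p under 0.05.

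The AMPA receptor subunits were measured more tightly. Gria1 read 11.33, 11.40 and 11.36 in 30C and 11.37, 11.35 and 11.40 in 1C, a difference of -0.01 with a 95% interval of -0.13 to 0.11. Gria2 differed by -0.02 (95% interval -0.12 to 0.09), and the NMDA receptor subunit Grin2b by -0.01 (95% interval -0.19 to 0.16). Of 23 AMPA, kainate and NMDA receptor genes, 12 were higher and 11 lower, and 0 reached an unadjusted p under 0.05, against 5.48% of all genes. In each of 3 further lists 1 member reached that level, where 2.41% of all genes were higher and 3.07% lower. Gabra2, a subunit of the GABA-A receptor, was the 1 lower of 13 GABA receptor genes (7.69%), with 10.47, 10.70 and 10.85 in 30C and 10.91, 11.00 and 10.83 in 1C (-0.24, SE 0.09). Kcnk3, a leak channel, was the 1 higher of 32 potassium channel genes (3.12%), at a difference of 0.26 (SE 0.10). Ngfr, the low-affinity neurotrophin receptor, was the 1 higher of 21 neurotrophic factor genes (4.76%), at 0.49 (SE 0.23).

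Of 41 histone modifier genes, 2 were higher at an unadjusted p under 0.05 (Kdm6b and the deacetylase Hdac4) and 2 lower (the deacetylases Hdac8 and Sirt2). Each is 4.88%, near the 2.41% and 3.07% of all genes. Hdac4 read 8.46, 8.32 and 8.27 in 30C and 8.24, 8.24 and 8.12 in 1C, a difference of 0.15 (SE 0.06). Hdac8 read 7.20, 7.12 and 7.29 in 30C and 7.43, 7.34 and 7.30 in 1C, a difference of -0.15 (SE 0.07). Of 16 DNA methylation and demethylation genes, 7 were higher in 30C and 9 lower. With an unadjusted p under 0.05 there were 2 higher (Gadd45g and Gadd45b, counted above) and 1 lower (Apobec1), or 12.5% and 6.25%, against 2.41% and 3.07% of all genes.

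The dim end of the arrays differed between the groups as a whole. The 25th percentile of all probe sets was 5.54, 5.59 and 5.54 in 30C and 5.49, 5.51 and 5.51 in 1C, without overlap. In the lowest quartile of mean level (4.75 to 6.96), the median difference was 0.03 and 180 genes were higher at an unadjusted p under 0.05, against 70 lower. In the highest quartile (9.39 to 13.83), 16 were higher and 72 lower, with a median of -0.02. Olfactory receptor genes, whose products detect odours in the nose and which lie near the background here, were mostly higher. Of 1104 on the array, 222 passed the limit on low values, which 1 group with high arrays is enough to meet. Of these, 177 were higher in 30C, with a median of 0.08, and 21 were higher at an unadjusted p under 0.05 (9.46%). That share was 6.11% in the lowest quartile and 2.41% over all genes. The immediate early genes had a median level of 8.17 and the microglial markers one of 8.40, both above the lowest quartile. The medians of the blood cell markers (6.3) and of the cell cycle genes (6.28) lay within it. There, 2.38% of genes were lower at an unadjusted p under 0.05. Single members can lie in that quartile when their list's median does not, as did Lgals3 (mean 6.15 over 15 arrays) and Gadd45g (6.53). Median centring of each array left 142 genes higher at an unadjusted p under 0.05, and 690 were lower.

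The difference between 30W and 1W, in rats without the test, shares no array with the comparison of 30C and 1C, although both draw on 1 estimate of the spread per gene. No gene passed an adjusted p of 0.05 there either (smallest adjusted p = 0.115), and 1188 genes (10.1%) had an unadjusted p under 0.05, 493 higher (4.19%) and 695 lower (5.9%) in 30W. Of the 284 genes higher in 30C, 224 (78.9%) were also higher in 30W than in 1W, against 39.7% of all genes. Of the 362 lower in 30C, 296 (81.8%) were also lower in 30W, against 60.3% of all genes. The dim end differed there as well, the 25th percentile being between 5.54 and 5.59 in 30W and between 5.48 and 5.50 in 1W. In the lowest quartile of level, 81.1% of the genes higher in 30C were higher in 30W, against 68.9% of all genes of that quartile. In the highest quartile, the shares were 56.2% and 26.9%.

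At an unadjusted p under 0.05 in both comparisons, 48 genes were higher. That is 16.9% of the 284, where 4.19% of all genes were higher in 30W. It is 9.74% of those higher in 30W, where 2.41% of all genes were higher in 30C. Likewise 67 genes were lower, which is 18.5% of the 362 (against 5.9% of all genes) and 9.64% of those lower in 30W (against 3.07%). Across the 11778 genes, which are not independent replicates, the 2 differences correlated at 0.27 (Pearson's r). Of the 12 leading genes lower in 30C, 6 were lower without the test at that level too, where 5.9% of all genes were. These were Apobec1, Nr1d2, Fam76a, Nr1d1, Cd180 and Ccdc115. Cd180 differed by -0.51 (SE 0.08) between 30W and 1W, further than the -0.32 between 30C and 1C. Of the 12 leading genes higher in 30C, Evx1 (0.25, SE 0.06) and Sctr (0.19, SE 0.06) were higher at that level without the test. Of all genes, 4.19% were.

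**Figure D5:**
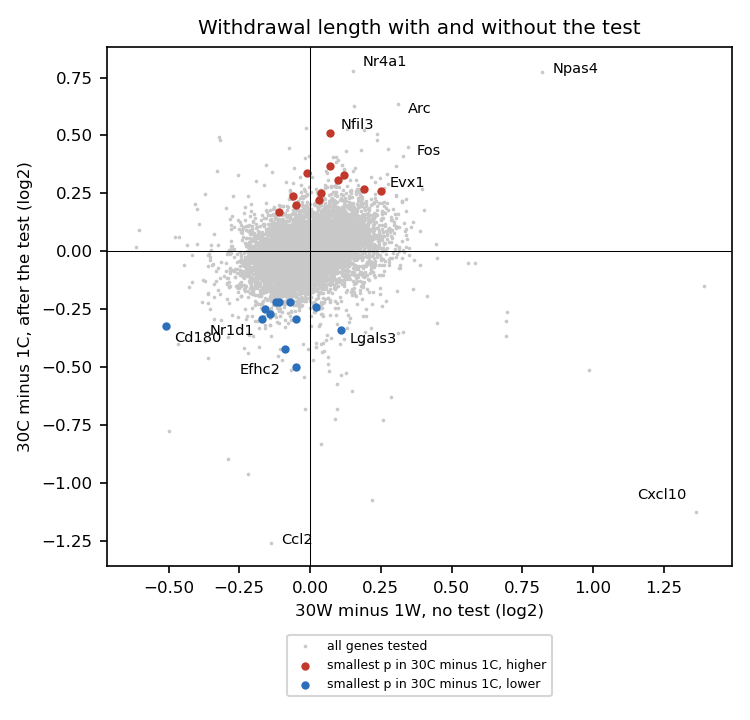
Difference of 30C and 1C (vertical, log2) against difference of 30W and 1W (horizontal, log2) for the 11778 genes tested, which correlate at 0.27. Red and blue points are the 12 genes per direction with the smallest p in the comparison of 30C and 1C; Nfil3 lies far above the horizontal axis with a horizontal value of 0.07, and Cd180 lies low on both axes.

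Whether the difference by withdrawal length itself depended on the test was fitted as an interaction, the difference of 30C and 1C minus that of 30W and 1W. No gene passed an adjusted p of 0.05 (smallest 0.999 in limma), and 357 genes (3.03%) had an unadjusted p under 0.05, 188 positive (1.6%) and 169 negative (1.43%). The 4 genes with the smallest p in the positive direction were Pgls, Nfil3, Nagk and Ctla2a, and the 4 in the negative direction were RT1-CE13, Lgals3, Kpna4 and Acsl3. For Nfil3 the interaction was 0.45 (unadjusted p = 0.00119), the arrays of the 3 other cocaine groups lying between 7.30 and 7.59. For Lgals3 it was -0.45 (unadjusted p = 0.000674). Its 1C arrays (6.41 to 6.50) lay above all others, with 30W between 6.09 and 6.25, 1W between 5.99 and 6.10 and Sal between 5.98 and 6.04. RT1-CE13, a class I histocompatibility gene whose probes may also match its close relatives, was 0.32 higher in 30W than in 1W (SE 0.06), with an interaction of -0.39.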

How the data were processed

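RNA from the nucleus accumbens was hybridised to 15 Affymetrix rat arrays, 3 for each of 5 groups taken from the sample titles. The values the authors deposited are log2 expression levels, and the submitters' processing notes name RMA without a version. The labels name a 3' labelling kit, while the probe set IDs are of the kind used on whole-transcript arrays, and this conflict is not settled by the sources used here. RMA's quantile step can hide a change shared by most genes, and the number of arrays limits the precision.

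Of 28826 probe sets, 15209 had 1 gene symbol in the platform annotation, 306 had several and 13311 had none. Symbols were updated through RefSeq GRCr8 for 15178. A gene with several probe sets (494 of 14497) was taken by the one with the highest mean. Genes above the 30th percentile on at least 3 arrays were kept (11778). Group means were fitted in R 4.3.3 by lmFit and eBayes of limma 3.58.1 (10 residual degrees of freedom, 3.44 prior), two-sided, with Benjamini-Hochberg adjustment over all genes kept and a threshold of 0.05. The fit was tested on simulated data.

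Genes named are, per direction, the 12 with the smallest p and the 5 with the largest difference among genes whose arrays did not overlap, the 3 smallest p per gene list, the 4 smallest interaction p per direction, and a list of addiction-related genes. Others that complete a count, and Ccl2, were chosen after their values were seen. The lists, 38 in all, and the comparisons were chosen with earlier results of these data known. The comparisons were refitted under 13 alternatives.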

Additional observations from a re-analysis of the deposited data

How the results depend on the processing

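The count of 0 genes past the adjusted threshold between 30C and 1C became 2 with array weights (Efhc2 and Nfil3, adjusted p = 0.0493 for both) and 1 with the cortical covariate (Nfil3, adjusted p = 0.0174), and ranged from 0 to 2 when single arrays were left out. The 2 were Itm2a and Nfil3 without replicate 2 of 1C and Il1r1 and Lgals3 without replicate 3 of 30C. Between 30W and 1W the count became 3 with array weights and ranged from 0 to 1. The 284 genes higher became 472 with no limit on low values, 124 with a stricter one, 182 after a further quantile normalization and 142 after median centring, and ranged from 183 (without replicate 1 of 1C) to 394. The 362 lower became 690 after median centring and ranged from 219 (without replicate 2 of 30C) to 499. The 18 immediate early genes ranged from 11 to 20 as arrays were left out. The 8 microglial markers became 5 with the stricter limit, 13 with median centring and 5 with only the arrays compared, and ranged from 4 to 10. The 7 vascular markers became 4 with array weights and 4 with only the arrays compared, and ranged from 2 to 14. The causes were not tested. Nothing in the labels pairs the replicate numbers, and same-numbered 30C and 1C arrays correlated at -0.22, 0 and 0.06 in their deviations. The replicate block gave 0 genes past the adjusted threshold and 17 immediate early genes. Differences were also recomputed for 82 genes, which include some not named here and leave out some that are. Of 2027 such differences, 2003 kept their direction and stayed short of the threshold, 7 passed it and 17 reversed. Those that reversed were small to begin with or rested on 1 array. As arrays were left out one at a time, Drd1 ranged from -0.24 to 0.09, Drd2 from -0.23 to 0.06, Drd3 from -0.17 to 0.17, Pdyn from -0.25 to 0.06, Penk from -0.18 to 0.02 and Epb42 from -0.08 to 0.04, each highest without replicate 1 of 30C. Gria1 ranged from -0.03 to 0.01, Gria2 from -0.03 to 0.01, Grin2b from -0.04 to 0.02 and Slc17a7 from -0.76 to 0.70. With array weights Drd3 (0.10) and Epb42 (0.01) also reversed, and with the cortical covariate Drd3 (0.02).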

Other observations

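Chemokine and cell cycle genes added values outside the groups described above. Cxcl10, an interferon-induced chemokine, read 6.33, 6.42 and 6.42 in 30C and 6.53, 9.28 and 6.75 in 1C, so that its difference of -1.12 (SE 0.61) rested on replicate 2 of 1C. It was also high on 2 of the 3 arrays of 30W (8.51 and 8.42), where the third read 6.53, and lay between 6.16 and 6.65 in 1W. Ccl2 read 9.75 on replicate 2 of 1C and between 5.86 and 6.22 on the 14 others. Of 32 inflammatory and interferon genes, Oasl was the 1 higher at an unadjusted p under 0.05 (3.12%, against 2.41% of all genes). At that level 0 were lower, against 3.07% of all genes.

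Of 29 cell cycle genes on the array, 22 passed the limit on low values, and 15 of these were lower in 30C and 7 higher. At an unadjusted p under 0.05, 4 were lower (18.2%, against 3.07% of all genes) and 0 were higher, none passing the adjusted threshold. The list's median level of 6.28 lay in the lowest quartile, where 2.38% of genes were lower at that level. Prc1, a protein of the spindle midzone, read 6.01, 5.91 and 5.96 in 30C and 6.39, 6.28 and 6.39 in 1C, a difference of -0.39 (SE 0.13). Aurkb, a mitotic kinase, read 6.39, 6.56 and 6.56 in 30C and 7.01, 6.67 and 7.03 in 1C, a difference of -0.40 (SE 0.16). Between 30W and 1W the differences were 0.02 for Prc1 and -0.02 for Aurkb. Ccne2 and Mcm7 were the other 2.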
